A study of Mus musculus with 6 samples.

Results

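The genes described here encode the plaque of the desmosome and one membrane protein that works with it: Dsp, Jup, Pkp1, Pkp2, Pkp3 and Perp. They were taken by symbol from the deposited table of 49452 gene rows, in which each of the 6 had a single row. The desmosome is a spot-like junction that ties the keratin filaments of neighbouring keratinocytes together. Its cadherins (desmogleins and desmocollins) reach across the gap between cells. On the inside, plakoglobin (Jup) and the plakophilins (Pkp1 to Pkp3), which are armadillo-repeat proteins, bind the cadherin tails, and desmoplakin (Dsp) links them to keratin. Perp is a tetraspan membrane protein and a p53 and p63 target that stratified epithelia need for stable desmosomes. Loss of plaque proteins is known to cause skin fragility.

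RNA came from separated epidermis of C57BL/6 embryos at E19.5, when the barrier has formed shortly before birth. Of the 6 libraries, 261, 262 and 264 carry the genotype label control, and 263, 265 and 266 the label Rictor -/-, with titles that read ctrl and ricEKO. Rictor is a core subunit of mTOR complex 2, and the study compared mRNA levels between the 2 genotypes. The sources used here do not say what drives the deletion or whether each library is a separate animal, so p-values reflect the spread between these 6 libraries alone, which may be technical. Values are FPKM, which correct for transcript length and put genes on a common scale. Trends with length remained in some libraries, as given below, so comparisons of levels between genes are approximate.

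Rictor itself was not lower under the knockout label. Its levels were 5.63, 6.02 and 4.37 FPKM in the control libraries and 6.83, 7.04 and 6.86 FPKM in those labelled knockout. A value for the whole gene also counts exons that a deletion leaves in place and does not check the labels, so directions below are those of the libraries labelled knockout. Across the table, 23.5% of 13500 tested genes passed limma's moderated test at an adjusted p of 0.05, 7.91% higher and 15.6% lower. Higher genes were 33.7% of those called, against 44.9%, 50.1% and 47.9% after median, trimmed mean and quantile scaling and 52.5% after an adjustment for length and GC content. Deviations from the gene means followed transcript length most strongly in control 264 (Spearman's rho across genes -0.36), with 0.17, 0.19 and 0.26 in 263, 265 and 266. In libraries 261 and 262 the same rho was -0.0073 and 0.0028.

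Epidermal markers were abundant, with the basal keratin Krt14 at 2582 ± 282 FPKM and the suprabasal keratin Krt10 at 12917 ± 205 FPKM in the controls (SD, n = 3). Calls among the markers that follow stand beside 7.91% higher and 15.6% lower over all tested genes. No such share was derived for an unadjusted p under 0.05. Of 6 basal markers 5 rose and 1 fell. Their summed levels were 8006 to 8522 FPKM in controls and 11990 to 13875 FPKM under the knockout label. None of 7 suprabasal markers passed limma's test, none at an unadjusted p under 0.05, at 38165 to 39686 against 33941 to 35476 FPKM. Of 8 hair follicle markers 6 fell (1378 to 1735 against 817 to 948 FPKM), as did 4 of 5 sebaceous (78.8 to 90.9 against 35.8 to 42.7), 4 of 5 melanocyte (351 to 437 against 264 to 296) and 4 of 5 tested immune markers (44.0 to 64.9 against 28.6 to 32.4). Fibroblast markers summed to 114 to 142 and 124 to 159 FPKM, mostly from Dcn (105 and 111 FPKM in the group means), which was not called. Of the tested markers 2 of 4 rose, Col1a1 (3.61 to 7.64 FPKM) and Col1a2 (6.49 to 10.1 FPKM). Col3a1 went from 7.03 to 13.9 FPKM and missed limma's threshold (adjusted p = 0.0708), while Pdgfra averaged 0.25 FPKM in both groups. The 5 endothelial markers summed to 2.84 to 5.01 FPKM in controls and 3.83 to 4.69 FPKM under the knockout label, mostly from Egfl7 (3.003 and 3.54 FPKM in the group means), the 1 tested, while Kdr averaged 0.08 and 0.07 FPKM. Muscle markers summed to 6.15 to 13.3 and 7.56 to 23.8 FPKM, highest in 266, and none of 3 tested passed limma's test, none at an unadjusted p under 0.05. The Langerhans cell marker Cd207 (0.02 and 0.04 FPKM) was near 0. In whole epidermis, fewer cells of a type and less RNA per cell cannot be told apart. Markers named singly in this paragraph were chosen after their values were seen. The part of these markers in the differences below was not tested.

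Most of the genes were among the most abundant transcripts of the tissue and one, Pkp2, was barely expressed. In every one of the 6 libraries the order of FPKM was Perp, Jup, Pkp1, Dsp, Pkp3 and Pkp2. In the controls Perp lay at the 99.7th percentile of the tested genes, Jup, Pkp1, Dsp and Pkp3 at the 99.0th, 98.9th, 98.7th and 97.7th, and Pkp2 at the 12.8th. Within the controls the ranges of Jup and Pkp1 (566 to 686 and 465 to 625 FPKM) overlapped across libraries, as did those of Pkp1 and Dsp (376 to 522 FPKM), with control 264 lowest for all 3 genes. Within each library Jup was above Pkp1 and Pkp1 above Dsp, and in the controls Pkp1 was 1.20 ± 0.0377 times Dsp (SD, n = 3). Perp, Pkp3 and Pkp2 stood clear of their neighbours. Under the knockout label Jup (731 to 806 FPKM) lay clear of Pkp1 (613 to 689 FPKM), and Pkp1 and Dsp (528 to 612 FPKM) did not overlap either, though the lowest Pkp1 and the highest Dsp values differed by little.

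Pkp3 rose modestly under the knockout label, and it was the member that passed the test. Jup and Dsp stood above the controls in each knockout-labelled library without passing, Pkp1 overlapped, and Perp and Pkp2 stood below the controls in each library without passing. Thus 1 of the 6 genes was called, against 23.5% of all tested genes. In 5 of 6 the groups did not overlap, 3 higher and 2 lower, against 45.8% of all tested genes (16.6% higher and 29.2% lower). The median log2 difference of the 6 was 0.26, and that of all tested genes was -0.06. All 6 passed the filter on low values, which asks for a mean of 1 FPKM or more in at least 1 group.

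**Figure D1:**
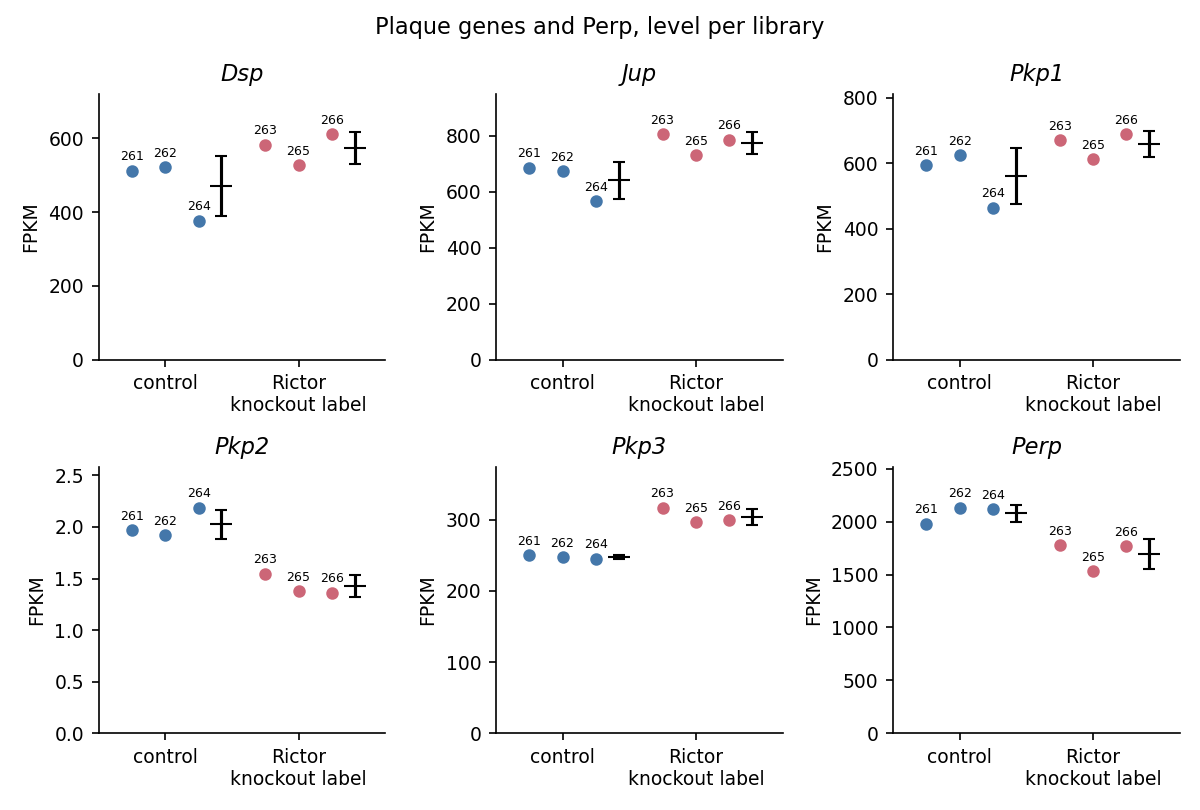
FPKM of each gene in every library (points, library numbers above), with the mean and SD of each group of 3 in black and axes that start at 0. Pkp3 runs from 245 to 251 FPKM in the controls and from 297 to 317 FPKM under the knockout label, while control 264 is the lowest library for Dsp, Jup and Pkp1.

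Dsp (ENSMUSG00000054889, GRCm38 chromosome 13, 38151294 to 38198577, plus strand) encodes desmoplakin, the plakin that anchors keratin filaments to the plaque, in a long and a short isoform that are summed here. It measured 512, 522 and 376 FPKM in controls 261, 262 and 264, and 583, 528 and 612 FPKM in 263, 265 and 266. Every knockout-labelled library lay above every control, but 265 exceeded control 262 only narrowly and control 264 stood far below the other controls. The means were 470.1 ± 81.2 and 574 ± 42.6 FPKM (SD, n = 3 per group). The difference on the log2(FPKM + 1) scale was 0.30 ± 0.14 (SE; 95% interval -0.03 to 0.64), short of limma's threshold (adjusted p = 0.166). Without control 264 it was 0.15, and with libraries weighted by their fit it was 0.20. The gene Gm10129 lies on the opposite strand and shares 499 exonic bases with Dsp. It averaged 0.27 FPKM, and the sources used here do not say whether the counting used strand.

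Jup (ENSMUSG00000001552, chromosome 11, 100368958 to 100397763, minus strand) encodes plakoglobin, a close relative of beta-catenin that also serves adherens junctions. Its levels were 686, 674 and 566 FPKM in the controls and 806, 731 and 786 FPKM in 263, 265 and 266, again without overlap and with control 264 lowest. The means were 642 ± 66.3 and 774 ± 38.9 FPKM (SD, n = 3 per group). The log2 difference was 0.27 ± 0.10 (95% interval 0.04 to 0.51; limma adjusted p = 0.0908). That difference passed after the adjustment for length and GC content (limma adjusted p = 0.0354) and with array weights (0.0245), and in none of the fits that left out a library (0.0645 to 0.245).

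The RefSeq promoter table on GRCm38.p6 held start regions for 2 of the 6 genes, Dsp and Jup. Both are shown for that reason alone. Each runs 5′ to 3′ from 250 bases before the start to 50 after it, at chr13:38151044-38151343 (plus strand) for Dsp and chr11:100397741-100398040 (minus strand) for Jup. Capitals mark matches on either strand to the GC box GGGCGG, the CCAAT box CCAAT, the TATA box TATAAA, the AP-1 site TGANTCA and the Snail-type E-box CACCTG.
Dsp: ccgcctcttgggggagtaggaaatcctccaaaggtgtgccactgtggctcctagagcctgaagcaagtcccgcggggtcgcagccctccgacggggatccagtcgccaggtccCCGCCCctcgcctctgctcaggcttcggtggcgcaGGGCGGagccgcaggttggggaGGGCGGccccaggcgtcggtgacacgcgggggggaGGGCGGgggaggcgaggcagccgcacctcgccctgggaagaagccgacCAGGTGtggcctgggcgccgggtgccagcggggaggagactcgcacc
Jup: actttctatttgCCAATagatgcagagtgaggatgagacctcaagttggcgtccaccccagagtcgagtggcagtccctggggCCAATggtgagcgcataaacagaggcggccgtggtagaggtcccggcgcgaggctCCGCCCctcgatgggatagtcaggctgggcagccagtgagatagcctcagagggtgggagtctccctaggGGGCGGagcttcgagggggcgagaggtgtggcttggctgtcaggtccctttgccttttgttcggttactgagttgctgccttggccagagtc
Dsp had 4 GC boxes, which begin 137, 102, 80 and 45 bases before the start, and 1 E-box just after it. Jup had 2 GC boxes, 112 and 42 bases before the start, and 2 CCAAT boxes at 238 and 167. No marked matches overlapped. Neither window held the TATAAA or TGANTCA letters. Dsp's window was 73.0% G and C with 27 CpG dinucleotides, and Jup's 60.7% with 14. Of 32851 promoters of this length, 35.7% held a GC box, 37.4% CCAAT, 20.2% the E-box, 13.6% TATAAA and 7.81% TGANTCA, so the GC box that both share is common. A match is a description of the letters and not evidence of binding.

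Of the plakophilins, Pkp3 (ENSMUSG00000054065, chromosome 7, 141078218 to 141090510, plus strand), which binds a broad range of desmosomal cadherins and is found in all living layers, stood at 251, 247 and 245 FPKM in the controls. In 263, 265 and 266 it stood at 317, 297 and 299 FPKM. The controls were within a few FPKM of each other and all knockout-labelled libraries lay above them. The means were 248 ± 2.62 and 304 ± 11.1 FPKM (SD, n = 3 per group), a 1.23-fold difference. The log2 difference was 0.30 ± 0.06 (95% interval 0.14 to 0.45), which passed limma's test (adjusted p = 0.0197). The call was kept in all 10 fits on all libraries that used other processing. It was lost without control 261 (limma adjusted p = 0.0638), 262 (0.0512), or knockout-labelled 263 (0.0899), 265 (0.0555) or 266 (0.0732), and kept without control 264 (0.0138). The size changed little in these fits, from 0.27 to 0.31.

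Pkp1 (ENSMUSG00000026413, chromosome 1, 135871395 to 135919207, minus strand), the plakophilin of differentiating layers whose loss causes ectodermal dysplasia with skin fragility, was the most abundant plakophilin. It measured 594, 625 and 465 FPKM in controls 261, 262 and 264 and 671, 613 and 689 FPKM in 263, 265 and 266. Library 265 lay below control 262, so the groups overlapped, and control 264 was again far below the rest. The means were 561 ± 84.8 and 658 ± 39.8 FPKM (SD, n = 3 per group), with a log2 difference of 0.24 ± 0.13 (95% interval -0.06 to 0.54; limma adjusted p = 0.210). Without control 264 the difference was 0.11. Neither this gene nor Dsp passed in any of the 16 alternative fits.

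Pkp2 (ENSMUSG00000041957, chromosome 16, 16213318 to 16272712, plus strand), the plakophilin of heart muscle and simple epithelia, was close to the filter. It measured 1.97, 1.92 and 2.19 FPKM in the controls and 1.55, 1.37 and 1.36 FPKM in 263, 265 and 266. All controls lay above all knockout-labelled libraries. Its means were 2.03 ± 0.143 and 1.43 ± 0.103 FPKM (SD, n = 3 per group), a ratio of 0.705. The log2(FPKM + 1) difference was -0.32 ± 0.09 (95% interval -0.54 to -0.09), just short of the threshold (limma adjusted p = 0.0512). At this level the pseudocount shrinks the value: it was -0.48 with a pseudocount of 0.1 (adjusted p = 0.0501) and -0.13 with 5 (0.0470). It passed without an intensity trend (0.0238) and with array weights (0.0124), and after quantile normalization it was -0.19 (0.177). None of the fits that left out a library passed (limma adjusted p = 0.0823 to 0.151). In the same libraries 6 of 8 hair follicle and 4 of 5 sebaceous markers were called lower. So were 4 of 5 melanocyte and 4 of 5 tested immune markers, and 15.6% of all tested genes. The hair follicle markers Shh and Lef1 were not called, and a link of any of these to Pkp2 was not tested.

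Perp (ENSMUSG00000019851, chromosome 10, 18845020 to 18857073, plus strand) went the other way from the abundant plaque genes. It measured 1983, 2134 and 2121 FPKM in the controls and 1780.2, 1530.1 and 1769.9 FPKM in 263, 265 and 266. The controls were all higher, and 265 was the lowest library. The means were 2079 ± 84.1 and 1693 ± 141 FPKM (SD, n = 3 per group), a ratio of 0.814. The log2 difference of -0.30 ± 0.10 (95% interval -0.53 to -0.07) missed limma's threshold (adjusted p = 0.0655). Perp has the shortest exonic length of the 6, 1952 bases against 9659 for Dsp. With the adjustment for length and GC content its difference was -0.15 (adjusted p = 0.257), while those of Dsp and Pkp3 were 0.29 and 0.35. Perp passed at a minimum of 5 FPKM (0.0494), without an intensity trend (0.0477) and with array weights (0.0261). It passed in none of the fits that left out a library (limma adjusted p = 0.0591 to 0.193), and without a filter the value was 0.287.

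**Figure D2:**
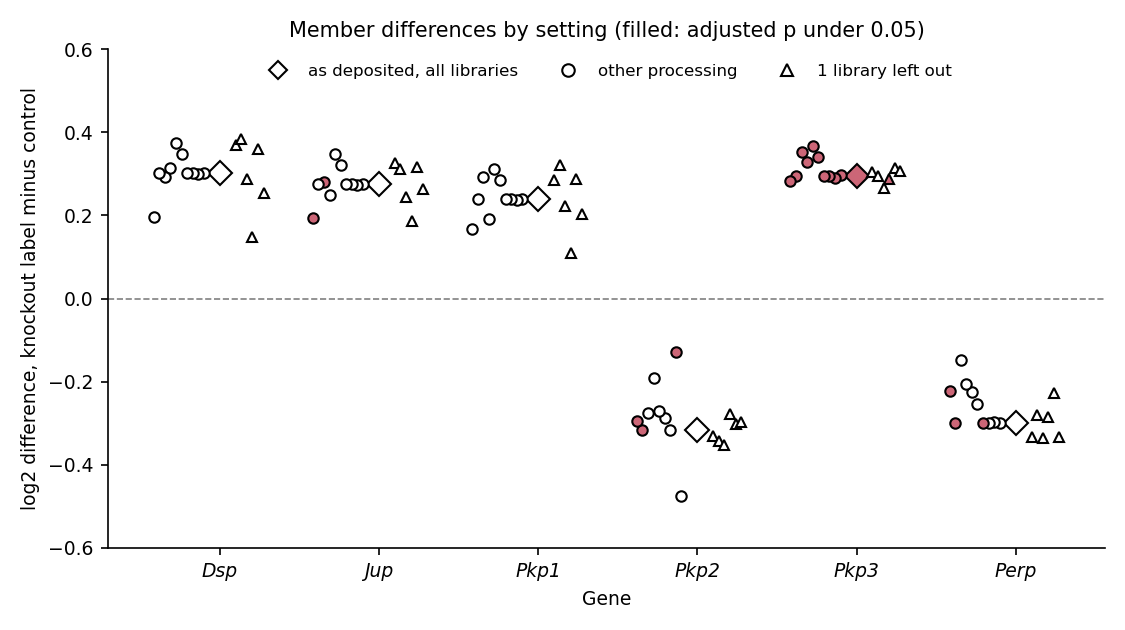
Log2 difference of each gene, knockout label minus control, with all libraries as deposited (diamonds), under other processing (circles) and with 1 library left out (triangles), filled where limma's adjusted p was under 0.05. Each gene kept its sign in every fit shown, and Pkp3 lost its fill in 5 of 6 fits with a library left out.

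Ratios within a library are free of scaling between libraries, and 8 were compared between the groups. In 4 of them the groups did not overlap, and these were the ratios that involve Pkp2 and that of Perp to Dsp. The ratios with Pkp2 all share the values of that low gene, so they are not independent results. Of single tested genes 45.8% did not overlap, and no such share was derived for ratios. Perp FPKM was 3.87, 4.09 and 5.64 times Dsp FPKM in controls 261, 262 and 264 and 3.05, 2.90 and 2.89 times in 263, 265 and 266. All controls were higher, and control 264 stood apart. The log2 ratio differed by -0.60 (SD 0.29 and 0.04, n = 3 per group; exact two-sided permutation p = 0.1, adjusted 0.2 over the 8). The smallest p that 3 against 3 allows is 0.1. Without control 264 the log2 ratio of Perp to Dsp differed by -0.43, and after the adjustment for length and GC content by -0.44. As a share of the summed FPKM of the 6 genes, Perp took 52.1 ± 3.65% in the controls and 42.2 ± 0.779% under the knockout label.

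For Pkp3 to Pkp2 the control libraries had ratios of 127, 129 and 112 and the knockout-labelled libraries 205, 216 and 219.5, a log2 difference of 0.80 (exact permutation p = 0.1). That of Pkp1 to Pkp2 differed by 0.74 and that of Pkp2 to Dsp by -0.81, both with exact permutation p = 0.1 and adjusted 0.2. In the other 4 ratios the groups overlapped. Jup was 1.38 ± 0.111 times Dsp in the controls and 1.35 ± 0.0568 times under the knockout label, a log2 difference of -0.027 (exact permutation p = 0.8). The log2 ratios of Pkp1 to Dsp, Pkp3 to Dsp and Pkp1 to Pkp3 differed by -0.063, -0.0057 and -0.057 (exact permutation p = 0.2, 0.9 and 0.7). Those of Jup to Dsp, Pkp3 to Dsp and Pkp1 to Pkp3 moved by less than their SD between the controls. That of Pkp1 to Dsp, with a control SD of 0.045, differed by -0.0015 after the adjustment for length and GC content (exact permutation p = 1), and its groups did not overlap without control 261 (-0.086) or without 265 (-0.073). A p that misses the threshold does not show that the genes moved alike.

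**Figure D3:**
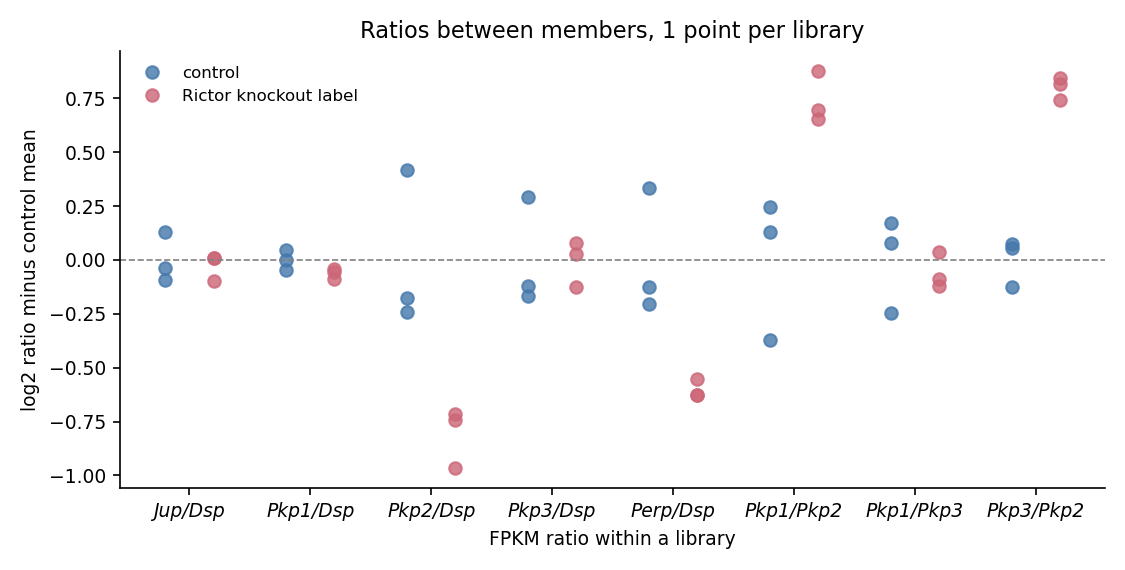
Log2 FPKM ratio between 2 genes in each library, set relative to the control mean of that ratio (blue, control; red, knockout label). The groups separate for Pkp2 to Dsp, Perp to Dsp, Pkp1 to Pkp2 and Pkp3 to Pkp2, and overlap for the other 4.

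Of the cadherins that the plaque holds, with corneodesmosin (Cdsn), 4 of 9 tested genes rose and 2 fell, with a median log2 difference of 0.15. Over all tested genes 7.91% were called higher and 15.6% lower. Dsg3, the desmoglein of the lower layers, rose from 30.1 ± 3.45 to 62.4 ± 5.56 FPKM (1.03 ± 0.11 log2, SE; limma adjusted p = 0.00272). Dsc2 went from 3.59 ± 0.548 to 8.85 ± 3.74 FPKM, with 7.4, 6.1 and 13.1 FPKM in 263, 265 and 266. Dsg2, the desmoglein of simple epithelia and basal cells, rose from 14.8 ± 0.414 to 19.9 ± 1.58 FPKM and Dsg1b from 24.7 ± 2.45 to 34.1 ± 2.79 FPKM. Dsg4, of the hair shaft, fell from 10.7 ± 1.31 to 6.95 ± 0.431 FPKM. Dsg1a fell from 170.0 ± 18.1 to 135 ± 7.23 FPKM, close to the threshold (limma adjusted p = 0.0465). It is named after its value was seen, and its call was not followed singly through the alternatives. Dsg1a, Dsg1b and Dsg1c are near-identical copies, so how reads were split between them is uncertain. The count of 6 was 3 without control 261 and 3 without 263. Those fits called 1923 and 1462 genes in all, against 3169 in the main fit. The calls of Dsg3, Dsg2 and Dsg4 held in all 16 alternatives, while Dsg1b and Dsc2 each lost theirs in 4.

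Of 14 tested genes for relatives of the plaque proteins and for the adherens junction 4 rose and 1 fell, with a median of 0.14. The shares of all tested genes were 7.91% higher and 15.6% lower. Vcl, vinculin of actin-linked junctions, rose from 14.4 ± 0.597 to 24.0 ± 1.64 FPKM (0.70 ± 0.07 log2, SE; limma adjusted p = 0.00264). Pkp4, an armadillo protein related to the plakophilins, rose from 39.8 ± 3.31 to 57.0 ± 3.49 FPKM. The spectraplakin Macf1 rose from 41.1 ± 4.23 to 57.5 ± 4.73 FPKM and alpha-catenin (Ctnna1) from 106 ± 6.87 to 131 ± 8.31 FPKM. Macf1 lost its call in 2 of 16 alternatives, without 263 or 265. Ctnna1 lost its call in 6, 5 of them with a library left out (all but control 264; limma adjusted p = 0.0652 to 0.115). Arvcf, another armadillo protein, fell from 22.9 ± 4.07 to 15.0 ± 2.37 FPKM, and its call was lost in 9 of 16 alternatives. The cornified envelope plakins Ppl and Evpl had log2 differences of 0.00 ± 0.25 and 0.10 ± 0.12, which missed the threshold, and both are named after a look at their values. The count of 5 was 3 without a filter on low values (2231 genes called in all, against 3169 in the main fit). It was 3 without control 261, control 262 or 266 (1923, 2208 and 1538 in all). Without 263 or 265 it was 2 (1462 and 1745 in all).

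**Figure D4:**
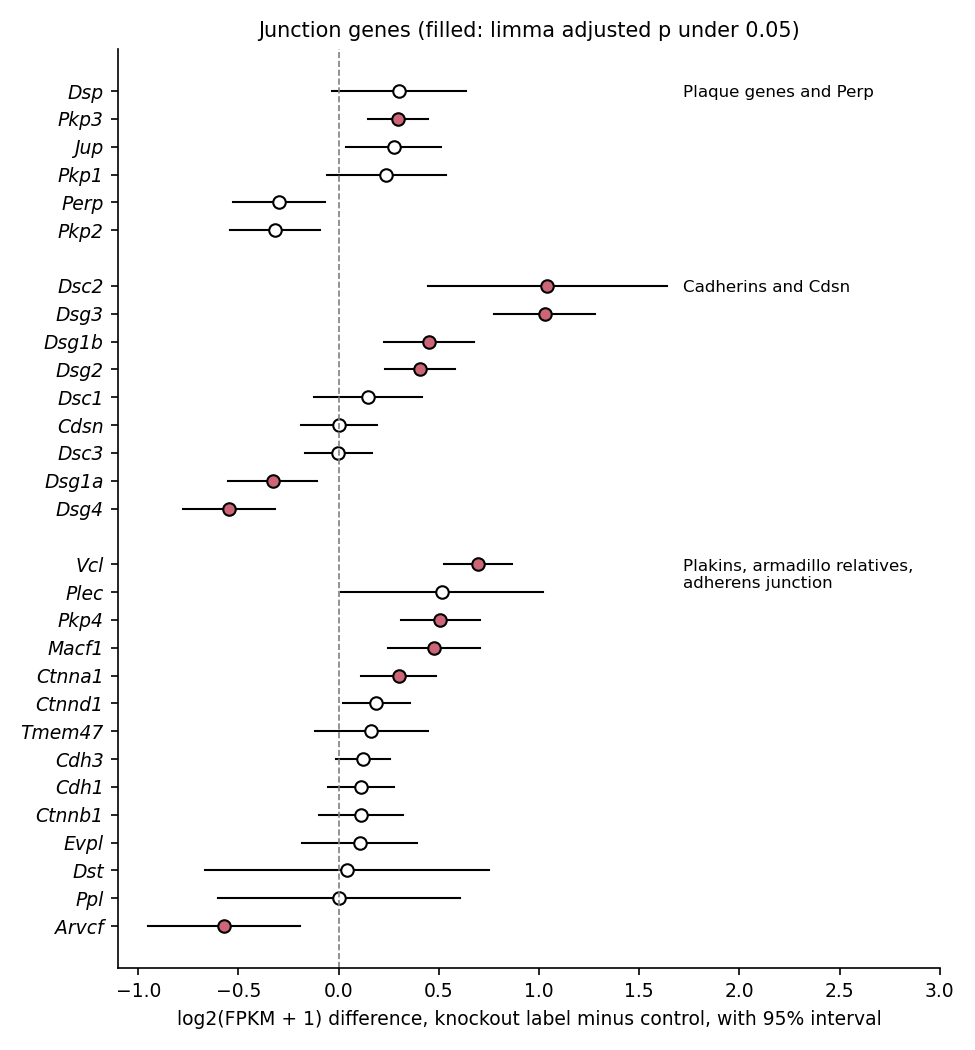
Log2(FPKM + 1) difference, knockout label minus control, with its 95% interval for the plaque genes, the cadherins with Cdsn, and plakin, armadillo and adherens junction genes, filled where limma's adjusted p was under 0.05. The interval of Pkp3 runs from 0.14 to 0.45, that of Dsg3 from 0.77 to 1.28.

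Among the keratins that the plaque anchors 6 of 10 tested rose and 1 fell, against 7.91% and 15.6% of all tested genes. Their median log2 difference was 0.50. Krt6a and Krt16, of wounded epidermis, went from 46.5 ± 5.49 to 1125 ± 412 FPKM and from 64.5 ± 21.4 to 1702 ± 621 FPKM. The basal keratins Krt14 and Krt5 rose from 2582 ± 282 to 5949 ± 901 FPKM and from 3515 ± 242 to 5212 ± 168 FPKM, and Krt15 fell from 1621 ± 234 to 982 ± 122 FPKM. Krt5 and Krt15 lost their calls without a filter on low values and without 263. The count of 7 was 3 in each of these fits, which called 2231 and 1462 genes in all, against 3169 in the main fit. Krt6a, Krt16 and Krt17 have close paralogs whose shared reads may have been split. Of 15 regulators and accessory genes of desmosomes 1 rose and 0 fell by limma's adjusted p, against 7.91% and 15.6% of all tested genes. At an unadjusted p under 0.05 Grhl3 was also higher, and Prkcd and Pof1b were lower. No share of all tested genes was derived at that level, so these add no count against a background. The median was 0.01. The gene that rose was Pnn (0.30 ± 0.07; limma adjusted p = 0.0283), which encodes pinin, found at desmosomes and in nuclear speckles. Prkcd, a protein kinase C, and Pof1b, an actin-binding epithelial protein, differed by -0.23 ± 0.07 each, Grhl3, an epidermal transcription factor, by 0.41 ± 0.14 and Mdm2, the p53 ligase, by 0.14 ± 0.06, and none passed (limma adjusted p = 0.0583, 0.0584, 0.0741 and 0.150). Trp63, which drives Perp and is named after its value was seen, stood at 163 ± 23.6 and 174 ± 12.0 FPKM. Pnn lost its call without control 261, control 262, 263 or 266 (limma adjusted p = 0.0503, 0.0716, 0.103 and 0.0953). The count for the regulators was 0 without control 261, 263 or 266, where 1923, 1462 and 1538 genes were called in all. It was 1 without control 262 (2208 in all), where Grhl3 passed (limma adjusted p = 0.0497), and 3 without control 264 (3784 in all).

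The genes whose log2 levels followed each member most closely over the 6 libraries were taken from 8865 protein-coding genes at a mean of at least 5 FPKM. Pearson's r of the 3 nearest genes ran from 0.989 to 0.9998 over the members. Named for Dsp are Vezf1 and Mki67, for Pkp1 Vezf1, Arfgef2 and Mki67, and for Jup Skil, Dmwd and Emsy, none of which passed limma's test. Pkp3 had Crk, Tnfrsf1a and Pgm2. Crk, an adaptor protein, differed by 0.27 ± 0.06 and Tnfrsf1a, a receptor for TNF, by 0.33 ± 0.06 on the log2 scale, and both passed (limma adjusted p = 0.0174 and 0.0129), though Crk lost its call without control 261, 263 or 266 and Tnfrsf1a without 263. Pkp2 was nearest to Lhfpl1, Leprot and Tusc2, which all fell, and Perp to Dpp3, Mccc2 and Gnpda1, of which the last 2 fell. Leprot lost its call without 265 or 266, Tusc2 without 266, Mccc2 in 5 of 16 alternatives and Gnpda1 in 4. With 6 libraries in 2 groups many genes reach a high r. Between 113 genes (Perp) and 489 genes (Pkp2) had r over 0.95, a lower bar than the 0.989 above. Because the genes were picked by likeness over the same libraries, their directions and calls follow in part from that choice and are no separate result. The values of r describe likeness over these libraries, which differ in group, depth and length trend. The source of the likeness was not tested.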

How the data were processed

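The authors deposited FPKM per Ensembl gene, 1 column for each of 6 libraries, made with CASAVA and Cufflinks on GRCm38, per the submitters' processing notes. The sources used here do not give the aligner, annotation, versions, strandedness or RNA selection. Libraries were assigned by title and genotype label, and the labels give no pairing. GENCODE M21 gave symbols, positions and exonic lengths (49195 of 49452 rows matched), keeping the row with the highest mean per symbol. Steps between low values put depths at 1 to 1.20 times that of control 261, and summed FPKM was 609375 to 672925. Absolute depth was not derived, so no counting intervals are given.

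The 13500 genes whose mean reached 1 FPKM in at least 1 group were fitted with limma 3.58.1 (R 4.3.3) as log2(FPKM + 1) with an intensity trend and no covariates. This scale understates changes of low genes, and the filter lets a low gene in through its higher group. P-values are two-sided and Benjamini-Hochberg adjusted over all tested genes. Ratios were tested by exact permutation over libraries. Members and lists were chosen with earlier results of these data known. Named were the members, Rictor, the 5 genes with the smallest p of each of 4 related lists, and the 3 most correlated genes per member, of which 1 gene is not reported here. Alternatives were other pseudocounts, filters, scalings, variance models, a length and GC adjustment and each library left out. Figures used matplotlib 3.10.9.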

Additional observations from a re-analysis of the deposited data

How the results depend on the processing

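The 6 members kept their direction in all alternatives that gave a value, and a minimum of 5 FPKM left Pkp2 out. The count of called members was 2 with a pseudocount of 5 (Pkp2 -0.13, limma adjusted p = 0.0470), 2 at a minimum of 5 FPKM (Perp -0.30, 0.0494), 2 after the length and GC adjustment (Jup 0.28, 0.0354), 3 without an intensity trend (Pkp2 -0.32 and Perp -0.30) and 4 with array weights (Jup 0.19, Pkp2 -0.29, Perp -0.22). Over all tested genes these fits called, in the same order, 3124, 2635, 3343, 3133 and 6272, against 3169 in the main fit. With array weights, where calls rose across the whole table, 7 desmosome regulators were called. Trimmed mean scaling called 2 regulators (3233 genes in all). Without a filter 3 plakin, armadillo and adherens genes and 3 keratins were called (2231 genes in all). With each library left out in turn, Pkp3 ran from 0.27 to 0.31, called members from 0 to 1, all called genes from 1462 (without 263) to 3784 (without control 264), cadherins from 3 to 6, plakin, armadillo and adherens genes from 2 to 6, keratins from 3 to 6 and regulators from 0 to 3. The log2 ratio of Jup to Dsp ran from -0.072 to 0.037 in these fits, turning positive without control 264 (0.037) and without 266 (0.0085). That of Pkp3 to Dsp ran from -0.090 to 0.14, positive without control 264 (0.14), without 266 (0.053) and after the length and GC adjustment (0.060). That of Pkp1 to Pkp3 ran from -0.18 to 0.027, positive without control 262 (0.027). Where a call or direction changed, the cause was not tested. No paired analysis was possible because the labels give no pairing. Precision is limited by 3 libraries per group.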
